A study of Mus musculus with 4 samples.

Results

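The genes described here are the nuclear receptors and their coregulators on a mouse liver array, chosen by gene symbol alone. The symbols taken were those of the NR0 to NR6 subfamilies, Ppara, Ppard, the retinoid X, retinoic acid and thyroid hormone receptors, the estrogen and estrogen-related receptors, the ROR receptors, Vdr, the Ncoa and Ncor coregulators and Nrip1, with Nr0b2 and Nr1h4 left out. This gave 64 of 12422 probe sets and 42 of 8251 genes with a symbol of their own. Of the 42 genes, 32 are receptors and 8 coregulators, while Esrp1 and Esrp2, which are splicing regulators, came in only because their symbols begin with the letters Esr. The study compared PEPCK-TAg transgenic mice, in which the promoter of the gluconeogenic enzyme PEPCK drives the SV40 large T and small t oncoproteins, with non-transgenic wild-type mice. All were male B6SJL hybrids aged 50 to 66 days, and all had eaten a diet of 65% protein and 10% carbohydrate for 4 weeks after weaning. Total liver RNA went onto 2 wild-type and 2 PEPCK-TAg MG_U74Av2 arrays, and nothing in the labels says how many animals an array represents. The p-values therefore measure only the spread between these arrays, which may be technical.

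Nuclear receptors are transcription factors whose activity is set by small lipid-soluble ligands such as hormones, bile acids, fatty acids and oxysterols. Many of those that set liver metabolism bind DNA paired with a retinoid X receptor, while others bind as single proteins or as pairs of like proteins. Coactivators such as the Ncoa proteins bring histone-modifying enzymes to a bound receptor, and corepressors such as Nrip1 bring repressive ones.

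Promoter sequence is shown for Nr1i3, the receptor gene with a probe set past the threshold, and for Nr1d1 and Nr1d2, a pair of related clock receptors with unlike values. Each is the 250 bases before the start of the gene in RefSeq (GRCm38.p6), on the gene's own strand. The Nr1i3 sequence is chr1:171213720-171213969 (+), Nr1d1 is chr11:98775378-98775627 (-), and Nr1d2 is chr14:18239107-18239356 (-). Capitals mark matches on either strand to AGGTCA, the half-site read by many nuclear receptors, or to CACGTG, the E-box read by the clock activators.
Nr1i3: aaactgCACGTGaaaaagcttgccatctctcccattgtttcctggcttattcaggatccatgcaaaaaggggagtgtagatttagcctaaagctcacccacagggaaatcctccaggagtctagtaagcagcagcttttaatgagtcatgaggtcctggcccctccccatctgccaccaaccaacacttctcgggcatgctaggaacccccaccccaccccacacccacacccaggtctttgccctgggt
Nr1d1: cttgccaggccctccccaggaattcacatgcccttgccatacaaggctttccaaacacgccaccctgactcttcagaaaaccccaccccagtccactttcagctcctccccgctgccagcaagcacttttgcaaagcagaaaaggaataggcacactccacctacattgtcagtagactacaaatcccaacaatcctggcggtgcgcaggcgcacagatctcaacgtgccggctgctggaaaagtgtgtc
Nr1d2: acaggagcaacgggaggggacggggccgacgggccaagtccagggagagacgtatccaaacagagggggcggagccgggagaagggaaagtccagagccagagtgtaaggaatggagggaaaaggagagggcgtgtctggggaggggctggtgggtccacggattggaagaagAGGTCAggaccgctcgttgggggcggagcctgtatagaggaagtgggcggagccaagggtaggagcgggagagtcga
The Nr1i3 window holds 1 CACGTG, the Nr1d2 window holds 1 AGGTCA, and the Nr1d1 window matches neither. AGGTCA was in 14.0% of all 32851 promoter windows of this length and in 9 of the 52 windows of the 35 member genes listed (17.3%). CACGTG was in 6.02% of all windows and in 4 of the 52 (7.69%). TAGGTCA, a longer form that contains AGGTCA, was in 2.23% of all windows and in 0 of the 52. Some windows of a gene overlap one another, and a match describes the letters only.

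The arrays had near-equal 2% trimmed mean signals (248.9 to 249.4), but their median signals parted by group. Testing needed a signal above 41.3, the 40th percentile of all signals, on at least 2 arrays, and signals under 10.6, the 20th percentile, were raised to that floor. The medians were 68.4 and 66.6 in the wild-type arrays against 77.05 and 84.7 in the PEPCK-TAg arrays. A signal here is the MAS5 brightness of a probe set in linear units. Log2 signals correlated at r = 0.943 over probe sets between the wild-type arrays, at 0.953 between the PEPCK-TAg arrays and at 0.812 to 0.844 across groups. The 3′ to 5′ signal ratio of the actin control was 4.33 and 3.41 in the first group and 3.82 and 3.14 in the other, wild-type given first. Wild-type 1 and PEPCK-TAg 1 were scanned on the same day, PEPCK-TAg 2 alone was washed on another fluidics station, and wild-type 2 alone was read on another scanner type. Each wild-type array came from a chip lot of its own and both PEPCK-TAg arrays from another lot, so lot and group cannot be told apart. Because the RNA came from whole liver, fewer cells of a type and less RNA per cell cannot be told apart either.

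Most member probe sets tested had estimated differences within 1.5-fold, though most of their 95% intervals did not exclude a 2-fold difference. The only gene past the threshold was Nr1i3, the constitutive androstane receptor, which fell in PEPCK-TAg liver on 1 of its 3 probe sets. Of the 36 member probe sets tested, 1 was called at a limma adjusted p under 0.05 and it was lower, which is 2.78% of the members against a background of 12.5% of all 7877 probe sets tested (9.1% higher and 3.4% lower). At an unadjusted limma p under 0.05 there were 5 of 36, against 30.4% of all. The median difference of the members, PEPCK-TAg minus wild-type, was -0.23 on the log2 scale, against 0.051 for all probe sets tested. Quantile normalization put the median of all probe sets at -0.088 and that of the members at -0.49. In the pair of arrays scanned on the same day the medians were -0.22 for the members and 0.029 for all. The members' differences ran from -1.66 to 1.02, and 25 of 36 (69.4%) lay within 1.5-fold, against 56.8% of all. The groups did not overlap for 14 members that were lower and 4 that were higher, where 26.5% and 33.3% of all probe sets did so. Of these, 4 were lower by 2-fold or more (background 5.87%) and 1 was higher by as much (14.7%). The 4 were the 3 probe sets of Nr1i3 and the 1 of Nr1d1, and the 1 that was higher was of Thra.

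**Figure D1:**
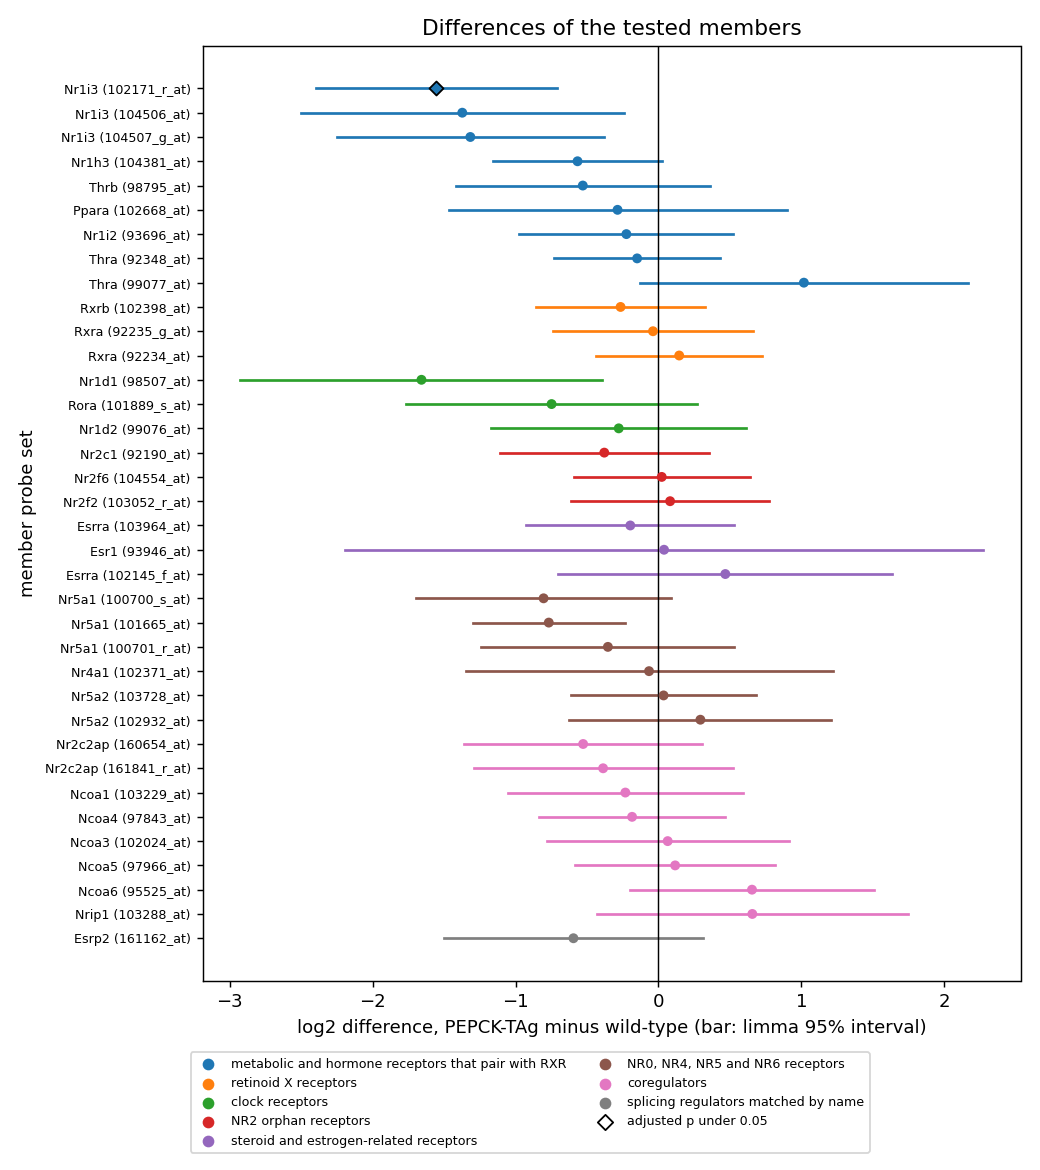
Each point is the log2 difference, PEPCK-TAg minus wild-type, of 1 of the 36 member probe sets tested, coloured by role, and each bar is limma's 95% interval from 2 against 2 arrays. The diamond marks Nr1i3 (102171_r_at) at -1.55, and the intervals of 5 probe sets lie wholly below 0 and of 0 wholly above it.

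The intervals set how much can be said of the other members. The median half-width of a 95% interval was 0.85 on the log2 scale, and 12 of the 36 intervals lay within 2-fold in either direction. For the other members a difference of 2-fold or more in at least 1 direction was inside the interval. The median gap between replicate arrays among the members was 0.29 for wild-type and 0.40 for PEPCK-TAg.

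**Figure D2:**
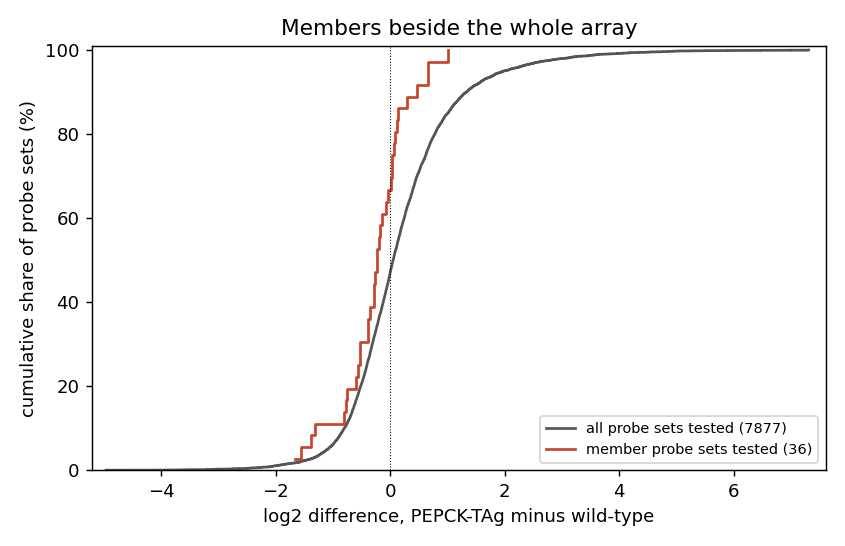
The lines give the cumulative share of probe sets, in percent, against the log2 difference, PEPCK-TAg minus wild-type, for the 36 member probe sets tested and for all 7877. The members' line ends at 1.02, and 66.7% of members against 46.9% of all lie below 0.

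Among the receptors that pair with a retinoid X receptor, Nr1i3, the constitutive androstane receptor that turns on drug-metabolising enzymes, had the largest negative differences. Of the 9 probe sets tested in this class, 3 of them for Nr1i3, 0 rose and 1 fell, with a median difference of -0.53. Its probe set 102171_r_at read 485 and 465 in wild-type liver against 117 and 223 in PEPCK-TAg liver. Both PEPCK-TAg arrays lay below both wild-type arrays, and PEPCK-TAg 1 was the lower of its pair. The probe set fell by 1.55 ± 0.35 on the log2 scale (SE, n = 2 and 2), or 2.94-fold (95% interval -2.40 to -0.71, limma adjusted p = 0.0355). The _r suffix of 102171_r_at marks a probe set that may hold fewer probes or be shared with related transcripts. Probe set 104507_g_at read 359 and 457 against 113 and 235, a difference of -1.32 ± 0.39 that did not pass the test (limma adjusted p = 0.0766). Probe set 104506_at read 391 and 386 against 90.2 and 249, a difference of -1.37 ± 0.47 (limma adjusted p = 0.110). All 3 probe sets thus had the same order of arrays between the groups, though the latter 2 were designed on 1 shared sequence record. Averaged over its probe sets, the gene differed by -1.41 with a limma adjusted p of 0.0532. In the pair of arrays scanned on the same day the 3 differences were -2.05, -1.67 and -2.11.

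The call rests on both PEPCK-TAg arrays. The difference of 102171_r_at was -1.09 without PEPCK-TAg 1 (limma adjusted p = 0.245) and -2.02 without PEPCK-TAg 2 (limma adjusted p = 0.143). Every call named here is lost when either of them is left out. The fluidics station as a block gives the same result as leaving out PEPCK-TAg 2, the only array on its station, so it is not a separate check. The Nr1i3 call was also lost with a constant variance prior (limma adjusted p = 0.0538), a floor at the 40th percentile (0.0546) and no filter (0.206), while without wild-type 1 probe set 104507_g_at was called too (-1.49, limma adjusted p = 0.0394).

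The other partners of the retinoid X receptors gave no call. Nr1h3, the oxysterol receptor LXRalpha, read 638 and 765 in wild-type liver against 428 and 520 in PEPCK-TAg liver. The groups did not overlap, and the difference was -0.57 ± 0.25 with a 95% interval of -1.16 to 0.025 (limma adjusted p = 0.179). Thrb, the thyroid hormone receptor beta that is the main form in liver, read 61.7 and 86.4 against 57.3 and 44.6, also without overlap, with a difference of -0.53 ± 0.37 (limma adjusted p = 0.380). Ppara, the fatty acid receptor that drives fat oxidation in fasting liver, read 393 and 160 against 276 and 153. Its replicates spread more than its groups did, and the difference was -0.29 ± 0.49 (limma adjusted p = 0.730). Nr1i2, the pregnane X receptor and closest relative of Nr1i3, read 88.8 and 117 against 88.7 and 85.5. The groups did not overlap, though wild-type 1 and PEPCK-TAg 1 read almost alike, and the difference was -0.22 ± 0.31 (limma adjusted p = 0.665).

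Thra, the thyroid hormone receptor alpha, gave unlike values on its probe sets. Probe set 99077_at read 41.7 and 20.1 in wild-type liver against 62.8 and 54.7 in PEPCK-TAg liver. It had the largest positive difference among the 36 members tested, 1.02 ± 0.48, and did not pass the test (limma adjusted p = 0.207). Probe set 92348_at read 344 and 384 against 308 and 349, with overlapping groups and a difference of -0.15 ± 0.24 (limma adjusted p = 0.714). Thra and the clock receptor gene Nr1d1 overlap by 1075 bases on chromosome 11 in the RefSeq table, and which part of Thra each probe set reads was not tested.

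The retinoid X receptors themselves, with 3 probe sets tested and a median of -0.039, gave no call. Rxra, the main form in liver, read 282 and 259 in wild-type liver against 302 and 296 in PEPCK-TAg liver on probe set 92234_at. The PEPCK-TAg arrays were slightly the higher, and the difference of 0.14 ± 0.24 (95% interval -0.44 to 0.73, limma adjusted p = 0.720) turned to -0.057 under quantile normalization. Its probe set 92235_g_at read 199 and 176 against 153 and 217, a difference of -0.039 ± 0.29. Rxrb read 733 and 811 against 564 and 731, with a difference of -0.27 ± 0.25 (95% interval -0.86 to 0.33, limma adjusted p = 0.509). The groups of Rxrb parted by only a few signal units.

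**Figure D3:**
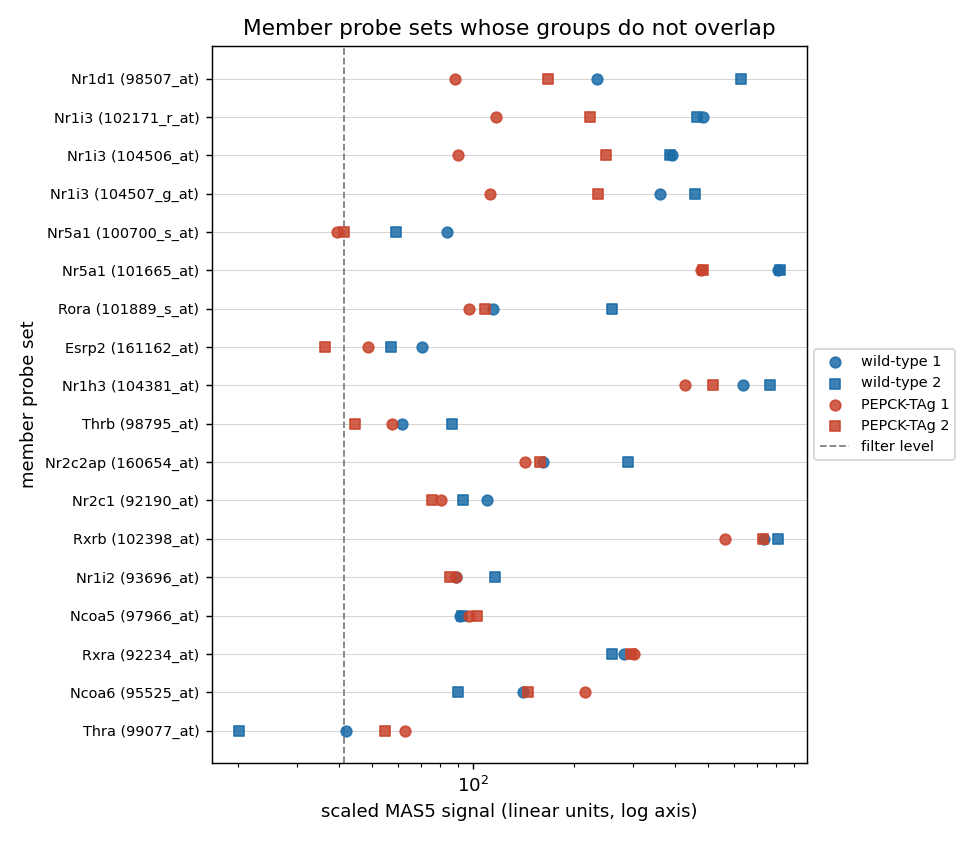
Scaled MAS5 signals (linear units on a log axis) of the 4 arrays for the 18 member probe sets tested whose groups do not overlap, ordered by difference, with the filter level of 41.3 as a dashed line. The 3 Nr1i3 probe sets and Nr1d1 (98507_at) have the most negative differences of the group means, and Thra (99077_at) at the foot lies the other way.

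The clock receptors bind the same DNA element with opposite effect, the REV-ERBs (Nr1d1 and Nr1d2) as repressors and the RORs as activators. All 3 tested had negative differences, with a median of -0.75, and none was called. Nr1d1 read 234 and 630 in wild-type liver against 88.5 and 167 in PEPCK-TAg liver. The wild-type arrays were far apart, yet both lay above both PEPCK-TAg arrays. Its difference of -1.66 ± 0.53 (95% interval -2.92 to -0.39), 3.16-fold, was the largest of any member and did not pass the test (limma adjusted p = 0.0921). In the pair scanned on the same day it was -1.41. Nr1d2 read 183 and 351 against 182 and 241, a difference of -0.28 ± 0.37 with overlapping groups (limma adjusted p = 0.653). Rora read 114 and 260 against 97.1 and 108, a difference of -0.75 ± 0.43 without overlap (limma adjusted p = 0.286) that was -0.24 in the same-day pair. Wild-type 2 was the higher of its pair for all 3 genes. Without wild-type 1 the differences of Nr1d1 and Rora were -2.37 and -1.34 and both were called (limma adjusted p = 0.00369 and 0.0311). The part of the hour at which livers were taken was not tested.

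The other clock genes listed, which the REV-ERB and ROR receptors regulate or work beside, did not pass the test: 0 of 13 were called and 1 had an unadjusted p under 0.05, with a median difference of -0.12. Arntl, the clock activator BMAL1 that REV-ERBs repress, read 150 and 172 in wild-type liver against 392 and 110 in PEPCK-TAg liver. Dbp, an output gene of the clock, read 560 and 252 against 141 and 703. The PEPCK-TAg arrays stood on either side of the wild-type arrays for both genes. Per2, a clock repressor, read 250 and 82.8 against 140 and 140.

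The NR2 orphan receptors (3 probe sets, median 0.023) and the steroid and estrogen-related receptors (3 probe sets, median 0.039) gave no call. Nr2f6 read 741 and 763 in wild-type liver against 646 and 903 in PEPCK-TAg liver, a difference of 0.023 ± 0.26 (95% interval -0.59 to 0.64) that was -0.0027 under quantile normalization. Nr2f2, also called COUP-TFII, read 206 and 180 against 173 and 240, a difference of 0.081 ± 0.29 that was -0.16 under quantile normalization. Nr2c1, the testicular receptor TR2, read 110 and 93.5 against 80.4 and 75.5, a difference of -0.38 ± 0.31 (limma adjusted p = 0.444). Only Nr2c1 of these had groups that did not overlap. Esrra, a regulator of mitochondrial genes, differed by -0.20 ± 0.30 on probe set 103964_at and by 0.47 ± 0.49 on 102145_f_at, which may also read related transcripts and was called without wild-type 1 (1.20, limma adjusted p = 0.0490). Esr1, the estrogen receptor alpha, read 10.0 and 43.1 against 8.0 and 45.5, with 1 array of each group below the floor of 10.6.

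The NR4 and NR5 receptors, with 6 probe sets tested and a median of -0.21, gave no call. Nr5a1, the receptor SF-1, is known mainly from the adrenal gland and gonads. Its probe set 101665_at read 811 and 821 in wild-type liver against 476 and 483 in PEPCK-TAg liver. The replicates lay side by side and the groups did not overlap, and the difference was -0.77 ± 0.22 (95% interval -1.30 to -0.24, limma adjusted p = 0.0719). Probe set 100700_s_at read 83.9 and 58.9 against 39.4 and 41.2, a difference of -0.80 ± 0.37 (limma adjusted p = 0.202). Probe set 100701_r_at differed by -0.35 ± 0.37 with overlapping groups (limma adjusted p = 0.560), and 2 more Nr5a1 probe sets were below the filter on all arrays. Of these, 161418_r_at read 21.5 to 36.7 and 101666_at read 1.0 to 6.9, below the floor on every array. The probe sets thus gave very unlike levels for Nr5a1, and what 101665_at reads in liver was not tested. Nr5a2, the liver receptor homologue LRH-1, read 467 and 641 against 623 and 505 on 103728_at. Its groups overlapped, and the difference of 0.035 ± 0.27 was -0.052 under quantile normalization. Its second probe set, 102932_at, differed by 0.29 ± 0.38. Nr4a1, an immediate early receptor gene, read 59.3 and 135 against 125 and 58.2, a difference of -0.066 ± 0.54.

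None of the 8 coregulator probe sets tested was called, and 0 had an unadjusted limma p under 0.05. Their median difference was -0.060. The p160 coactivators Ncoa1 and Ncoa3 differed by -0.23 ± 0.34 and by 0.064 ± 0.35, the latter at -0.20 under quantile normalization. Ncoa4, also the receptor for the autophagy of ferritin, differed by -0.18 ± 0.27. Ncoa5 read 91.7 and 92.6 in wild-type liver against 97.3 and 103 in PEPCK-TAg liver, a difference of 0.12 ± 0.29 without overlap that was -0.16 under quantile normalization. Ncoa6 read 141 and 90.1 against 216 and 145, also without overlap, a difference of 0.65 ± 0.36 (limma adjusted p = 0.269). Nrip1, the corepressor RIP140, read 93.4 and 49.8 against 144 and 80.0, a difference of 0.66 ± 0.46 with overlapping groups (limma adjusted p = 0.375). In both genes array 1 was the higher of each pair. Nr2c2ap, which binds the receptor TR4, differed by -0.53 ± 0.35 and -0.39 ± 0.38 on its probe sets. Esrp2, the splicing regulator, read 70.5 and 57.0 against 48.7 and 36.2, a difference of -0.59 ± 0.38 (limma adjusted p = 0.335).

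The other 28 member probe sets were not tested, since all 4 arrays lay below the filter of 41.3 on each. Their signals ran from 0.50 to 40.5, and 10 were at or below the floor on all arrays. For 15 genes no probe set was tested: Esr2, Esrp1, Esrrb, Ncoa2, Nr0b1, Nr2c2, Nr2f1, Nr3c1, Nr4a2, Nr6a1, Ppard, Rara, Rarg, Rxrg and Vdr. Nr3c1, the glucocorticoid receptor, read 11.2 and 22.8 in wild-type liver against 17.5 and 21.3 in PEPCK-TAg liver, so the array gives its level only as dim. The groups did not overlap for 5 of the 28 probe sets, among them Ppard, which was below the floor on all 4 arrays. The share without overlap among all 4545 probe sets not tested was not counted, so these 5 have no background. Rxrg read 15.2 and 14.0 against 40.5 and 39.1, just under the filter in the PEPCK-TAg arrays. Nr0b1, the repressor DAX-1, read 8.4 and 8.1 against 25.5 and 26.4 on 93141_at, and both wild-type arrays were below the floor. Ncoa2 read 25.3 and 22.5 against 7.3 and 13.6. With no filter Nr0b1 (93141_at) was called higher and Nr1i3 was not.

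Target genes were taken from 10 lists for nuclear receptors and their partners, some of which (HNF4A, SHP and PGC1) are not members. Counted once each, 130 such genes were tested, of which 4 rose and 17 fell in PEPCK-TAg liver. That is 16.2% called, against 12.9% of all 5954 genes by their brightest probe set (9.56% higher and 3.34% lower). Their median difference was -0.28, against 0.072 for all genes.

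Targets of Nr1i3 and of its relative Nr1i2 gave no call: 0 of 20 passed the test and 8 had an unadjusted limma p under 0.05. The list median was -0.041 and was 0.24 under quantile normalization. Cyp2b10, the drug-metabolising P450 by which Nr1i3 activity is usually read, had signals of 92.3 and 175 in wild-type liver against 160 and 203 in PEPCK-TAg liver. Its groups overlapped, with a difference of 0.50 ± 0.38 (limma adjusted p = 0.413). Cyp3a11, the usual readout of Nr1i2, differed by 0.58 ± 0.34 (limma adjusted p = 0.299). Gstm2, a glutathione transferase, read 455 and 294 against 113 and 207 and differed by -1.26 ± 0.39 without overlap (limma adjusted p = 0.0829). Cyp3a16 differed the other way, by 1.91 ± 0.58, with 1 wild-type array below the floor (limma adjusted p = 0.0811).

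Of 17 PPARalpha targets tested, 0 rose and 4 fell, with a median of -0.64. Those 4 were the fatty acid hydroxylase Cyp4a10 (-2.01 ± 0.30), the carnitine transferase Cpt2 (-1.59 ± 0.24) and the peroxisomal enzymes Acaa1b (-1.07 ± 0.21) and Ehhadh (-1.07 ± 0.25). Their limma adjusted p-values ran from 0.00883 to 0.0405. Cyp4a14, close kin of Cyp4a10, read 270 and 3558 in wild-type liver against 284 and 993 in PEPCK-TAg liver, and its replicates were further apart than its groups.

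Of 11 thyroid hormone receptor targets, 0 rose and 3 fell, with a median of -0.51. The lipogenic regulator Thrsp read 3776 and 1337 in wild-type liver against 229 and 432 in PEPCK-TAg liver, and fell by 2.84 ± 0.53 on the log2 scale (limma adjusted p = 0.0189). Uridine phosphorylase Upp2 fell by 2.51 ± 0.41 (limma adjusted p = 0.0119). Dio1, the deiodinase that makes active thyroid hormone, read 661 and 304 against 76.8 and 165 and fell 3.99-fold (limma adjusted p = 0.0472). For these 3 genes both PEPCK-TAg arrays lay below both wild-type arrays.

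Of 13 LXR targets, 1 rose and 2 fell, and the list median of -0.22 was 0.069 under quantile normalization. The lipase Lpl read 82.4 and 81.8 in wild-type liver against 2224 and 2186 in PEPCK-TAg liver, a rise of 4.75 ± 0.23, or 26.9-fold (limma adjusted p = 0.000449). The desaturase Scd1 fell by 1.40 ± 0.30 and the phosphatidate phosphatase Lpin1 by 1.24 ± 0.24. Srebf1 and Abca1, which LXR turns on directly, differed by -0.22 ± 0.34 and 0.22 ± 0.32, with overlapping groups.

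Of 9 genes of the bile acid pathway under NR5A2 and its partner SHP, 0 rose and 3 fell, with a median of -0.77. The hydroxylase Cyp7b1 read 3635 and 1771 in wild-type liver against 196 and 142 in PEPCK-TAg liver and fell by 3.93 ± 0.38 (limma adjusted p = 0.00223), on a probe set that may also read related transcripts. Cyp8b1, which sets the share of cholic acid, fell 3.99-fold and the bile acid ligase Slc27a5 by 1.23 ± 0.22. Cyp7a1, the rate-limiting enzyme of the pathway, differed by -0.010 ± 0.52.

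Of the other 4 target lists, 2 held calls in both directions and 2 held falls only. Of 18 glucocorticoid receptor targets 2 rose, the kinase Sgk1 (1.46 ± 0.23) and the metallothionein Mt2 (1.73 ± 0.36), and 2 fell, the amino acid enzymes Tdo2 (-1.67 ± 0.25) and Tat (-1.24 ± 0.23), with a list median of 0.27. Of 16 HNF4A targets 0 rose and 2 fell, Cyp8b1 and the thyroxine carrier Ttr (-1.76 ± 0.28), with a median of -0.56. Of 13 targets of the estrogen-related receptors and PGC1, 1 rose, the adenine nucleotide carrier Slc25a4 (4.45 ± 0.27), and 1 fell, Sdha of respiratory complex II (-1.83 ± 0.30). The median of that list, -0.27, was 0.019 under quantile normalization. Of 5 retinoic acid receptor targets 1 fell, the retinol dehydrogenase Rdh16 (-2.81 ± 0.66), with a median of -0.10.

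**Figure D4:**
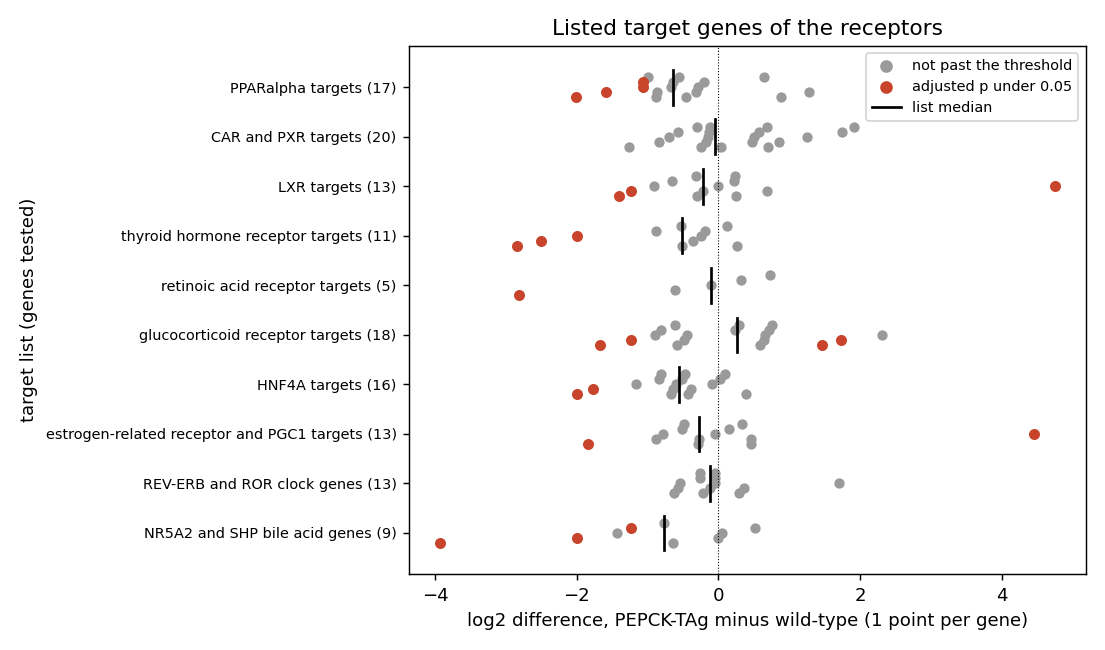
Each point is the log2 difference, PEPCK-TAg minus wild-type, of 1 target gene by its brightest probe set, red where the limma adjusted p was under 0.05, and the bar is the list median. The lists of CAR and PXR targets and of clock genes hold no red point, while Lpl and Slc25a4 lie far to the right at 4.75 and 4.45.

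Receptors and coregulators that the rule did not match or left out were set beside the members. Pparg, the fat-cell receptor, read 28.0 and 6.8 in wild-type liver against 117 and 145 in PEPCK-TAg liver. It rose by at least 7.56-fold, since 1 wild-type array was below the floor (limma adjusted p = 0.0176). Nr0b2, the repressor SHP, read 201 and 272 against 117 and 64.7, a difference of -1.43 ± 0.38 (limma adjusted p = 0.0551). Nr1h4, the bile acid receptor FXR, read 1093 and 645 against 1376 and 1047, a difference of 0.52 ± 0.32 (limma adjusted p = 0.323).

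Of 38 other coregulators tested, 3 rose and 0 fell, or 7.89%, against 12.9% called of all genes (9.56% higher). Their median was 0.34, against 0.072 for all genes. The arginine methyltransferase Prmt1 read 111 and 191 in wild-type liver against 378 and 459 in PEPCK-TAg liver and rose by 1.52 ± 0.33 (limma adjusted p = 0.0326). The corepressor deacetylase Hdac3 read 102 and 87.2 against 373 and 197 and rose by 1.52 ± 0.37 (limma adjusted p = 0.0438). Psmc3ip, also known for its part in meiotic recombination, read 8.9 and 1.8 against 76.5 and 55.1. Its estimated rise was 6.13-fold, or 2.62 on the log2 scale (95% interval 1.51 to 3.72). Both wild-type arrays were raised to the floor, so the estimate may understate the fold. Ppargc1a, the coactivator PGC1alpha, differed by 1.23 ± 0.48 without overlap (limma adjusted p = 0.144).

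Enzymes and carriers that handle retinoids, steroids and thyroid hormone, whether they supply or remove ligand, were lower where they passed the test. Of 13 tested, 0 rose and 4 fell (30.8% called), against 12.9% called of all genes (3.34% lower), with a median of -0.61. They were Hsd11b1, which makes active glucocorticoid in liver (-1.46 ± 0.21), and Ttr, Rdh16 and Dio1, which also stand in the lists above. Of 13 chaperones of the steroid receptors, 1 fell, the co-chaperone Dnaja1 (-1.07 ± 0.25), and the median was 0.21. The heat shock protein Hsp90aa1 differed by 0.83 ± 0.30 (limma adjusted p = 0.118).

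Markers of other cells moved between the groups beside these values, and their part in them was not tested. Of 13 hepatocyte markers 0 rose and 2 fell, and their summed signal was 101623 and 105123 in wild-type liver against 64119 and 80274 in PEPCK-TAg liver. The hepatocyte median of -0.46 was 0.036 under quantile normalization. Of 23 Kupffer and myeloid markers 13 rose (summed signal 3816 to 4259 in wild-type and 14238 to 18811 in PEPCK-TAg liver), with Itgam and Marco at the floor on all arrays. The largest rises were in the neutrophil genes S100a9 (6.85 ± 0.31) and Ngp (6.39 ± 0.33). The Kupffer cell and macrophage genes Clec4f, Adgre1, Csf1r, Cd68, C1qa, C1qb and C1qc had positive differences but were not called (limma adjusted p 0.0511 to 0.348). Other myeloid genes on the list that macrophages also express, Lgals3, Tyrobp, Lyz2, Cd14 and Ctss, were called higher (limma adjusted p 0.00228 to 0.0339). The neutrophil gene Elane was not called (0.60 ± 0.47, limma adjusted p = 0.425). Of 12 erythroid markers 9 rose (4064 to 4449 and 11557 to 16602). Of 21 markers of dividing cells 20 rose (1600 to 1844 and 16550 to 18313). Of 7 lymphocyte markers 2 rose, Ccl5 and Ltb (507 to 532 and 598 to 610 for the list), with Cd3g and Cd8a at the floor on all arrays. The lymphocyte median was -0.29, with 4 of the 7 below 0, and -0.82 under quantile normalization. Groups did not overlap for 3 that were higher and for 3 that were lower, Cd4, Ms4a1 and Cd79a. Of 3 bile duct markers 2 rose (128 to 156 and 373 to 718), with Krt19 at the floor. Of 12 endothelial markers 1 rose (1953 to 3204 and 2480 to 2692), and of 10 stellate cell and fibroblast markers 1 rose and 1 fell (5071 to 5302 and 3316 to 3340).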

How the data were processed

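Signal intensity was measured in total liver RNA on 2 wild-type and 2 PEPCK-TAg arrays. The authors deposited 1 MAS5 intensity per probe set, in linear units (MAS5 is named in the submitters' processing notes, with no version). Here each array was scaled linearly to a common 2% trimmed mean, changing no signal by more than 0.10%, floored at 10.6, the 20th percentile over all arrays, and log2-transformed. Linear scaling does not equalise distributions, and signals near background understate folds. Testing required a signal above 41.3, the 40th percentile, on 2 or more of the 4 arrays. limma 3.58.1 in R 4.3.3 (intensity trend, two-sided, no block) compared the groups, with Benjamini-Hochberg adjustment over all 7877 probe sets tested; SEs are moderated, with 6.60 degrees of freedom. An exact permutation test of 2 against 2 cannot go below 0.333 and was not used.

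The platform table gave 1 symbol for 10833 probe sets, several for 396 and none for 1193; all 42 member symbols matched RefSeq. Named genes are the called members, up to 12 more with the largest differences and no overlap between groups, 1 member of small difference per class, and called genes of the lists, up to 5 per list; other genes named, such as Cyp2b10 and Arntl, were chosen after their values were seen. Lists take each gene's brightest probe set. Members and lists were chosen with earlier results of these data known. Suffixes _s, _f, _r and _g mark probe sets that may be shared with related transcripts or hold fewer probes, as 9 of the tested members do. The number of arrays limits the precision.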

Additional observations from a re-analysis of the deposited data

How the results depend on the processing

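The alternatives covered normalization, floor, filter, the variance model, threshold, batches and each array left out, fitted on the probe sets of the reported test, with a lone array assumed to vary like the other group. The fluidics station as a block sets PEPCK-TAg 2 alone apart, and the scanner type sets wild-type 2 alone apart. The differences in these block fits equal those with that array left out, so they are not separate checks. The count of lower calls, 1, was 0 with no trend in the variance, with the floor at the 40th percentile, with the fluidics station as a block, with no filter and with the mean over a gene's probe sets. It was 4 at an adjusted p of 0.1, and ran from 0 (without either PEPCK-TAg array) to 4 (without wild-type 1). The count of higher calls, 0, was 1 with no filter (Nr0b1) and 0 to 1 with an array left out (Esrra without wild-type 1). The replicate number as a block gave 5 lower calls and 1873 over all probe sets. Same-numbered arrays correlated at 0.253 in their deviations, but with 2 pairs they share only a number.

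The member median of -0.23 was -0.00037 with no filter and -0.49 with quantile normalization, and ran from -0.31 to -0.10 with an array left out. The count of members 2-fold higher without overlap, 1, was 0 with the filter at the 60th percentile, the floor at the 40th percentile, a pseudocount or quantile normalization and 3 with no filter, and ran from 0 to 3 with an array left out. The count 2-fold lower, 4, was 6 with quantile normalization and ran from 2 (without PEPCK-TAg 1) to 5 with an array left out.

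For 16 probe sets, none past the threshold, 37 values changed sign in the refitted alternatives. Under quantile normalization they were Ncoa3 -0.20, Ncoa5 -0.16, Nr2f2 -0.16, Nr2f6 -0.0027, Nr5a2 (103728_at) -0.052 and Rxra (92234_at) -0.057. With the station as a block they were Esr1 -1.01, Nr2f2 -0.15, Nr2f6 -0.22, Nr4a1 0.49 and Ppara 0.14. With the scanner type as a block they were Esrra (102145_f_at) -0.27, Nr1d2 0.19, Nr2f2 -0.017 and Nr4a1 0.53. Esr1 was -0.12 with the floor at the 10th percentile and -0.043 with a pseudocount. With an array left out, the ranges that crossed 0 were Esr1 -1.01 to 1.09, Esrra -0.27 to 1.20 (102145_f_at) and -0.50 to 0.11 (103964_at), Ncoa3 -0.045 to 0.17, Ncoa4 -0.48 to 0.11, Nr1d2 -0.75 to 0.19, Nr2c2ap (161841_r_at) -0.83 to 0.051, Nr2f2 -0.15 to 0.32, Nr2f6 -0.22 to 0.26, Nr4a1 -0.66 to 0.53, Nr5a2 -0.079 to 0.67 (102932_at) and -0.19 to 0.26 (103728_at), Ppara -0.94 to 0.36 and Rxra (92235_g_at) -0.29 to 0.21. In the same-day pair alone, which has no test, Esrra (102145_f_at) was -0.13, Nr2f2 -0.25, Nr2f6 -0.20 and Nr4a1 1.08. The causes were not tested. Of the other member values in the refitted alternatives, 577 kept direction and side of the threshold, 11 came past it and 6 lost it. Of the lists' counts of calls, 412 stayed within 1.5 times the reported count and 120 moved further. Probe sets below the filter, 28 of the 64, have no test at this signal over background.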
